A study of Homo sapiens with 21 samples.

Results

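RNA from BT474 cells given trastuzumab plus pertuzumab for 3 days was compared with RNA from untreated BT474 cells, gene by gene. BT474 is an established human breast cancer line with many extra copies of ERBB2, the gene of the receptor HER2. The members were chosen by their labels alone: 3 libraries with 10 µg/mL of each antibody and 3 libraries without antibody, 6 of the 21 libraries of the series. A group of 3 libraries with 10 µg/mL trastuzumab alone for 3 days served to test where the pair of antibodies differed from the single one. The other 4 groups, antibody-resistant pools of the same line, were not compared. They entered the choice of genes tested, the scaling of the libraries and the estimate of the spread. All groups come from 1 cell line, and the labels do not say whether replicates were separate cultures, so each p measured the spread between these libraries, which may be technical.

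Trastuzumab binds HER2 near the membrane, and pertuzumab binds the arm through which HER2 pairs with HER3 and the other receptors of its family. Signals from such pairs run mainly through PI3K and AKT, which keep FOXO transcription factors out of the nucleus, and through RAS and ERK, which switch on immediate early genes and, in turn, genes that damp the pathway (dual-specificity phosphatases, Sprouty and SPRED proteins). Both arms feed cell division and lipid synthesis.

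Levels are given as CPM, the counts of a gene scaled to a common library size. The 6 libraries held 19324898 to 21746391 counts. Each library's deviation from its group mean was correlated across genes with GC content. Replicate 1 had the highest r of its group: 0.611 untreated, 0.302 with trastuzumab and 0.381 with both antibodies. The other libraries of these groups lay at -0.518 to 0.0793, and replicate 3 with both antibodies, at -0.494, deviated further than its replicate 1. Mitochondrially encoded transcripts took 24.5%, 33.3% and 29.8% of the counts of replicate 1 in the same order, against 18.2% to 21.9%. Genes are not independent replicates in these correlations. The log2 fold change between both antibodies and no antibody correlated with GC content across genes at r = -0.251, and the part of GC content in single results was not tested beyond the alternative fits given below.

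Of 17650 genes tested, 2190 (12.4%) differed between cells with both antibodies and untreated cells, 1128 higher (6.39%) and 1062 lower (6.02%), by edgeR's quasi-likelihood test at an adjusted p under 0.05. The changes were mostly small: the median called rise was 1.56-fold and the median called fall 1.67-fold, while 258 rises and 313 falls were at least 2-fold and 27 rises and 50 falls at least 4-fold. In 5066 genes (28.7%) the 3 libraries of one group all lay above the 3 of the other. Protein-coding genes were called in 1880 of 12595 cases, and long intergenic RNAs in 66 of 597, of which 47 rose. Without replicate 2 or 3 with both antibodies the count was 1325 or 1104, and with replicates 2 and 3 of every group alone it was 4008.

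**Figure D1:**
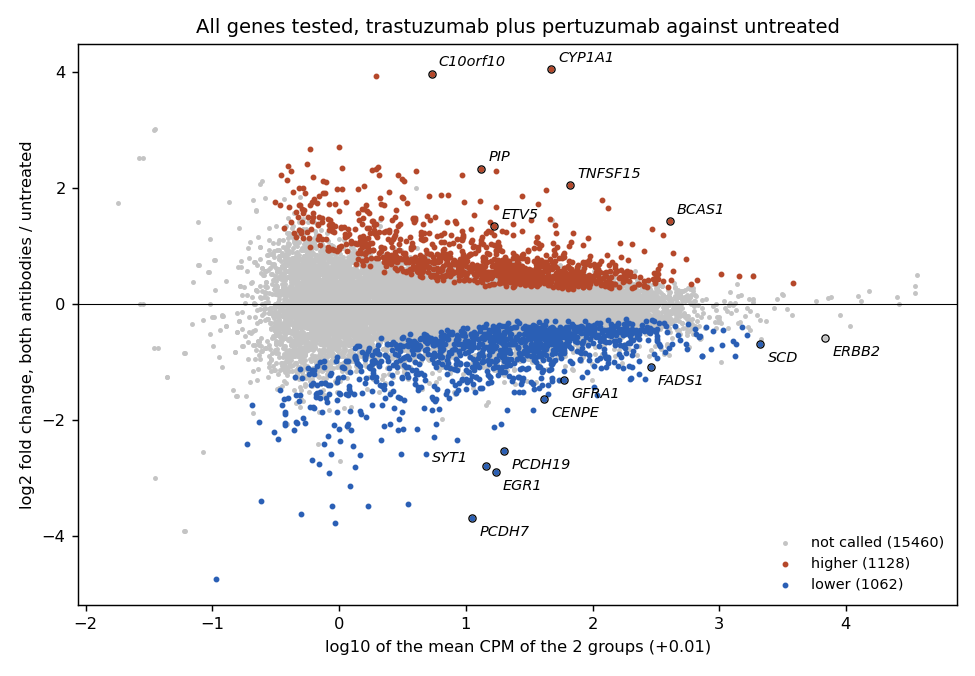
Each point is 1 of the 17650 genes tested, with the log10 mean CPM of both groups on the x axis and the log2 fold change of both antibodies over untreated on the y axis. CYP1A1 (4.05) and C10orf10 (3.98) lie at the top, PCDH7 (-3.69) near the bottom, and the 1128 higher and 1062 lower genes lie on either side of a band centred near 0.

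Of the 4 receptors of the family 1 rose, 1 fell and 2 did not pass. ERBB2 stood at 10347, 6673 and 7532 CPM in untreated replicates 1, 2 and 3 and at 6620, 5465 and 4388 CPM with both antibodies. The groups did not overlap, but the change (log2 fold change -0.58, SE 0.24, adjusted p = 0.122) did not pass; it passed with replicates 2 and 3 alone (adjusted p = 0.0338), with the GC correction (0.00805) and without the filter (0.0012). ERBB3, the kinase-impaired partner of HER2, was at 522 to 551 CPM in untreated cells and 582 to 705 CPM with both antibodies, and its change of 0.26 (SE 0.12, adjusted p = 0.167) did not pass either. ERBB4, the fourth receptor of the family, fell from 14, 17.5 and 13.7 CPM to 8.52, 6.52 and 6.18 CPM (-1.09, SE 0.15, adjusted p = 9.67e-05). Trastuzumab alone left it at 11.7 to 13.1 CPM, and the pair was lower by 0.79 on the log2 scale (adjusted p = 0.0116). That call ended without replicate 2 or 3 with both antibodies (0.0965 and 0.0876) or trastuzumab replicate 1 (0.0514). It also ended with only the 2 groups compared (0.109). Of 11 members of the HER family list, which also holds the ligands, 1 rose and 3 fell. The counts of this and all later lists stand beside 6.39% higher and 6.02% lower over all genes tested. All lists were chosen with earlier results of these data known. The fallen ligands were AREG, amphiregulin, which binds EGFR (-1.31, SE 0.22, 2.48-fold lower), and NRG3, a neuregulin that binds HER4 (-0.95, SE 0.20). EGFR was the member that rose (0.45, SE 0.13, adjusted p = 0.0272), and its call ended without replicate 1 or 3 with both antibodies (adjusted p = 0.0861 and 0.0626) or untreated replicate 2 or 3 (0.0866 and 0.0551). In RNA from whole cultures, fewer cells of a kind and less RNA per cell cannot be told apart, here and in all results that follow.

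Genes that PI3K and AKT signalling is known to hold down rose as a group. Of 33 tested members of a FOXO and PI3K-repressed list, 19 rose and 1 fell, with a median log2 fold change of 0.55 beside -0.01 over all genes tested. C10orf10 (DEPP1, ENSG00000165507, a FOXO target that acts on autophagy) gave the largest rise of the list, from 0.659, 0.569 and 0.681 CPM to 9.12, 8.95 and 12.3 CPM. Every treated library was far above every untreated one, a 15.7-fold rise (log2 3.98, SE 0.19, adjusted p = 1.04e-10). The stretch of its promoter that holds a forkhead core motif is shown because it is the strongest riser of the list with that motif, in capitals, with the RefSeq sequence on GRCh38.p14 (chr10:44978889-44979008, minus strand, 199 to 80 bases before the start).
C10orf10: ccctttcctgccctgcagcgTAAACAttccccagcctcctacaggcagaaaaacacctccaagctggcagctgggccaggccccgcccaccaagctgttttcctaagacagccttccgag

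The forkhead core (TAAACA, read on both strands in the 250 bases before the RefSeq start) was found in 8 of 30 list promoters (26.7%), beside 11.1% of all 27305 promoters and 6.28% of those of 10914 tested genes. Among the 19 called members with a promoter it was in 4 (21.1%); a match is a description, not a bound site. MXI1, a MYC antagonist, rose from 3.85, 3.93 and 5.26 CPM to 10.6, 15.6 and 18.4 CPM (1.77, SE 0.24). IRS2, the adaptor of the insulin receptor, rose from between 2.27 and 3.79 CPM to between 7.04 and 9.24 CPM (1.51, SE 0.20). GABARAPL1, an autophagy protein, rose from between 7.5 and 9.07 CPM to between 19.2 and 24.4 CPM (1.42, SE 0.13). All 3 separated the groups without overlap. PIK3IP1, which encodes an inhibitor of PI3K, rose 2.35-fold (1.23, SE 0.18), and the genes of the FOXO factors FOXO1 (1.13, SE 0.22) and FOXO4 (1.11, SE 0.15) rose 2.19-fold and 2.15-fold. YPEL5 (1.08, SE 0.12), KLHL24 (1.00, SE 0.16) and the pseudokinase TRIB2 (0.74, SE 0.13) followed. RRAGD, outside this list and placed in that of lysosome and autophagy genes (8 of 32 rose and 2 fell), a GTPase subunit that brings mTORC1 to the lysosome, rose from 1.65, 1.19 and 1.54 CPM to 2.64, 3.81 and 3.99 CPM (1.25, SE 0.21). The member of the FOXO list that fell was IRS1, the adaptor related to IRS2, from 37.4, 33.5 and 37.3 CPM to 22.3, 27.8 and 28.5 CPM (-0.46, SE 0.15, adjusted p = 0.0471), and its call ended without any single one of the 6 libraries (adjusted p from 0.0735 to 0.178). Without replicate 2 or replicate 3 with both antibodies, 12 members of the list rose. Against trastuzumab alone 2 of the 33 were higher with the pair, C10orf10 and the kinase gene PDK4, and 0 lower (1 at an unadjusted p under 0.05, 0 in DESeq2 and limma).

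The ERK list split. Of 25 tested members, 9 rose and 2 fell (median 0.12), and the rises were those of 3 of 6 ETS factors and 6 of 12 inhibitors of the pathway, while 0 of 7 other targets rose and 1 fell. ETV5, an ETS factor that ERK signalling induces, stood at 10.9, 9.15 and 8.35 CPM in untreated cells and 23.9, 22.3 and 25.5 CPM with both antibodies (1.34, SE 0.12, 2.53-fold higher). With trastuzumab alone it was 7.12, 6.06 and 6.83 CPM, below every untreated library, so the antibody pair and the single antibody gave opposite directions. DUSP6, the phosphatase that inactivates ERK, stood at 33.5, 33.3 and 28.4 CPM, then at 69.1, 60.7 and 66.7 CPM with both antibodies (1.05, SE 0.12), beside 37.8, 27.7 and 31.3 CPM with trastuzumab. SPRY4, a Sprouty inhibitor, went from 12.3, 8.22 and 7.71 CPM to 24.7, 21.2 and 21 CPM (1.25, SE 0.17). Its trastuzumab libraries, at 12.5, 9.68 and 10.9 CPM, overlapped the untreated ones. ETV4 (1.05, SE 0.23), SPRY1 (1.12, SE 0.13) and SPRED1 (0.66, SE 0.13) also rose, and their calls held under all 17 alternatives that test for any change.

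The remaining 3 rises were less firm. ETV1 (1.44, SE 0.43, at 0.31 to 0.33 CPM in untreated cells and 0.715 to 0.974 CPM with both antibodies), SPRY2 (0.61, SE 0.16) and SPRED2 (0.34, SE 0.09) lost their calls without single libraries: without replicate 2 or 3 with both antibodies, their adjusted p was 0.0935 and 0.118 for ETV1, 0.0518 and 0.0683 for SPRY2, and 0.0577 and 0.125 for SPRED2. Without untreated replicate 2 it was 0.0851, 0.0661 and 0.0794 in the same order, and ETV1 also lost its call without untreated replicate 1 (0.0685) or 3 (0.0837). The 2 falls were those of EPHA2, an ephrin receptor (-1.0, SE 0.25), and LRIG1, an inhibitor of HER receptors (-0.55, SE 0.14). Neither passed without replicate 2 with both antibodies (0.0564 and 0.0587), replicate 3 (0.0687 and 0.0776) or untreated replicate 1 (0.0746 and 0.0709).

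Immediate early genes, which respond to growth signals within minutes, went the other way. Of 18 tested members 5 fell and 0 rose, with a median of -0.63. At an unadjusted p under 0.05 edgeR's test gave 0 rises and 9 falls, DESeq2 called 0 and 7, and limma 0 and 5; with replicates 2 and 3 alone 8 fell. EGR1 (ENSG00000120738, chromosome 5, 138465490 to 138469315) fell from between 24.7 and 36.5 CPM in the 3 untreated libraries to 2.58, 6.48 and 3.07 CPM, 7.49-fold (-2.90, SE 0.38, adjusted p = 4.48e-05). Trastuzumab alone left it at 9.93, 25.9 and 12.9 CPM, a spread that overlapped the untreated libraries. FOS, a subunit of AP-1, fell from 9.07, 7.34 and 8.94 CPM to 1.98, 2.97 and 2.19 CPM (-1.82, SE 0.24), and JUN, its partner, from between 34.4 and 41.1 CPM to between 16.8 and 23.0 CPM (-0.96, SE 0.15). CYR61, a matrix-associated growth regulator, fell by 1.10 on the log2 scale (SE 0.18). The ERK list's growth genes MYC (-0.06, SE 0.14) and CCND1 (0.02, SE 0.10), often used as readouts of the same signals, overlapped between groups and did not pass.

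The test of both antibodies against trastuzumab alone bears on these genes directly. Over all genes 153 differed (0.867%), 86 higher and 67 lower with both antibodies. With replicate number as a block 388 differed, and the labels do not say whether the numbers pair the libraries. Among the 25 ERK genes 8 were higher with both antibodies and 0 lower (1 at an unadjusted p under 0.05, 0 in DESeq2 and limma), and among the 18 immediate early genes 0 were higher (0 at an unadjusted p under 0.05, in DESeq2 and in limma) and 2 lower. ETV5 differed by 1.84 (SE 0.12, adjusted p = 6.69e-08), ETV4 by 1.55 (SE 0.23, 0.00118), SPRED1 by 1.05 (SE 0.13, 0.000289), DUSP6 by 1.02 (SE 0.12, 0.000146) and SPRY4 by 1.02 (SE 0.16, 0.00222), and these 5 calls held under all 17 alternatives. SPRY1 (0.61), SPRED2 (0.56) and DUSP4 were the others. DUSP4, a nuclear ERK phosphatase, stood at 285, 315 and 331 CPM with trastuzumab, 413, 379 and 379 CPM untreated and 417, 427 and 422 CPM with both antibodies. It did not pass against untreated cells (0.11, SE 0.08, adjusted p = 0.399), was lower with trastuzumab alone (-0.33, SE 0.08, adjusted p = 0.0174) and differed between the treatments by 0.44 (SE 0.08, adjusted p = 0.00735). That call ended with library size alone (0.11), without the filter (0.224) and with only the 2 groups compared (0.239). The difference for SPRY1 (adjusted p = 0.0169) ended without replicate 2 or 3 with both antibodies (0.0679 and 0.109) or trastuzumab replicate 1 or 2 (0.113 and 0.0592). It also ended without the filter (0.322), with only the 2 groups compared (0.277), with library size alone (0.107) and with replicates 2 and 3 alone (0.0788). EGR1 differed by -2.0 (SE 0.37, adjusted p = 0.00872) and FOS by -1.33 (SE 0.24, adjusted p = 0.00644), that is, both were lower with the pair. Those calls ended without replicate 1 with both antibodies (0.0703 and 0.0563) or trastuzumab replicate 2 (0.0773 and 0.0534), and for EGR1 also without replicate 3 with both antibodies (0.0681). With only the 2 groups compared neither passed (0.124 for EGR1 and 0.0513 for FOS).

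**Figure D2:**
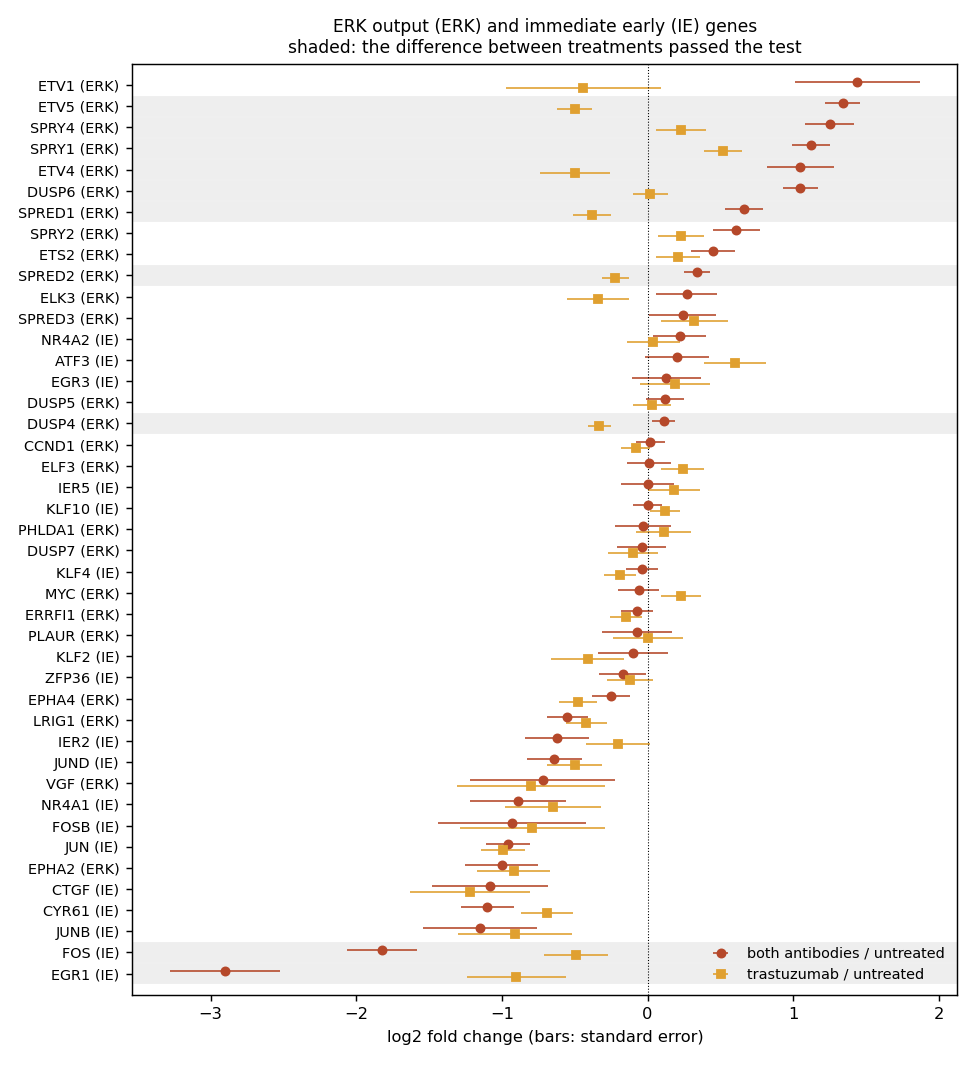
Log2 fold changes against untreated cells, with standard errors, for the ERK output (ERK) and immediate early (IE) genes with both antibodies (circles) and trastuzumab alone (squares); both share the untreated libraries. Shaded genes differed between the treatments, among them ETV5, ETV4, DUSP6, SPRY4 and SPRED1 near the top and FOS and EGR1 at the bottom.

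Cell division genes gave the most uniform fall. Of 45 tested members of the mitosis list 41 fell and 0 rose, with a median of -0.89; every member had a log2 fold change below 0, the smallest -0.08. At an unadjusted p under 0.05 edgeR's test gave 0 rises and 44 falls, DESeq2 called 0 and 43, and limma 0 and 38. Promoters of 4 fallen members are shown because many mitotic genes carry the same pair of elements, a CHR (TTTGAA) and CCAAT boxes, both in capitals on either strand; the stretch is the 120 bases before the RefSeq start on GRCh38.p14. PIF1 lies at chr15:64825648-64825767 (minus strand), CDC20 at chr1:43358861-43358980 (plus strand), ASPM at chr1:197146670-197146789 (minus strand) and MKI67 at chr10:128126424-128126543 (minus strand).
PIF1: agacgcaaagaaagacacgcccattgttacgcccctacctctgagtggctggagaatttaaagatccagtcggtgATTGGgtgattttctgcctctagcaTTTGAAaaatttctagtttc
CDC20: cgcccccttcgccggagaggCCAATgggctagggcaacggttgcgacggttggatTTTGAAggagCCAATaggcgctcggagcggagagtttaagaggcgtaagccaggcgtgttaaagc
ASPM: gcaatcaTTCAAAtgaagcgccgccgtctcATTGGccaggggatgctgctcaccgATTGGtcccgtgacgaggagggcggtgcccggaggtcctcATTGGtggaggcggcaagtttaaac
MKI67: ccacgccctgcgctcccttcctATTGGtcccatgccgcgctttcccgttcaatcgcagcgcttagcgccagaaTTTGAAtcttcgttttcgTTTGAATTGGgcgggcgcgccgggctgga

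Within 250 bases before the start, TTTGAA stood in 20 of 38 mitosis promoters (52.6%), beside 13.6% of all promoters and 8.42% of those of tested genes, and CCAAT in 29 of 38 (76.3%), beside 33% and 35.1%. Of the 36 called members with a promoter, 19 held TTTGAA and 28 held CCAAT. PIF1, a DNA helicase, fell from 10.5, 7.08 and 7.08 CPM to 1.65, 1.43 and 1.02 CPM (-2.59, SE 0.29). PLK1, the Polo-like kinase that drives mitotic entry, fell from 54.0, 33.3 and 39.0 CPM to 17.5, 14.6 and 12.3 CPM (-1.51, SE 0.19). CDC20, the activator of the anaphase-promoting complex, fell from 63.5, 37.0 and 50.5 CPM to 20.9, 16.6 and 17.2 CPM (-1.47, SE 0.20). In each of these genes untreated replicate 1 was the highest library, and the groups still did not overlap. HMMR (-1.55, SE 0.26), DLGAP5 (-1.44, SE 0.18) and CENPE (-1.64, SE 0.35), which act on the spindle and the kinetochore, showed the opposite order, with untreated replicate 1 the lowest of its group: CENPE stood at 30.9, 89.5 and 69.3 CPM untreated and at 14.8, 22.8 and 23.2 CPM with both antibodies. ASPM, a spindle pole protein, fell from 208, 355 and 284 CPM to 111, 118 and 118 CPM (-1.29, SE 0.19), and MKI67, the gene of the proliferation marker Ki-67, from 104, 167 and 161 CPM to 65.9, 76.3 and 78.8 CPM (-0.97, SE 0.21).

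DNA replication genes moved less. Of 47 tested members 8 fell and 0 rose (median -0.22), beside 6.02% lower and 6.39% higher over all genes tested. There were 0 rises at an unadjusted p under 0.05 in edgeR's test, and 0 in DESeq2 and in limma. The call of ORC6, a subunit of the origin recognition complex, held under all 17 alternatives: it fell from 44.2, 55 and 43.9 CPM to 31.2, 30.5 and 28.1 CPM (-0.67, SE 0.11). This count rested on the libraries: 5 fell without replicate 2 and 3 without replicate 3 with both antibodies, and 18 with replicates 2 and 3 alone. The E2F core TTTGGCGC was in 3 of 39 promoters of this list (7.69%; 0.553% of all promoters) and in none of the 8 that fell. Against trastuzumab alone edgeR's test, DESeq2 and limma called 0 genes of the mitosis and the replication list; at an unadjusted p under 0.05 there was 1 mitosis and 0 replication genes, and the median differences were -0.08 and 0.03. For PLK1 that difference was -0.18 (SE 0.19) and for MKI67 -0.12 (SE 0.21), which does not show that the treatments were equal.

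Growth arrest genes rose beside the fall in division genes. Of 25 tested members of a list of arrest, death and feedback genes, 10 rose and 0 fell (median 0.54; 0 falls at an unadjusted p under 0.05, in DESeq2 and in limma); without replicate 3 with both antibodies 6 rose, and with replicates 2 and 3 alone 16 did. CDKN1A, the cell cycle inhibitor p21, rose from 8.35, 3.31 and 6.26 CPM to 18.3, 14.9 and 18.7 CPM (1.53, SE 0.27). TP53INP1, a stress and autophagy regulator, rose from 94.9, 114 and 111 CPM to 203, 201 and 259 CPM (1.05, SE 0.12). BTG2, an antiproliferative protein, rose from 31.5, 33.1 and 37.8 CPM to 67.5, 56.1 and 71.5 CPM (0.93, SE 0.11). Their groups lay apart. SESN1 (0.79, SE 0.16) and MDM2 (0.68, SE 0.15), a ubiquitin ligase, rose 1.73-fold and 1.6-fold. The largest estimates belonged to genes at low counts. FAS, a death receptor, rose from 0.44, 0.207 and 0.136 CPM to 1.65, 0.939 and 2.53 CPM (2.72, SE 0.49), and GDF15, a stress-induced secreted factor, from between 0.155 and 0.385 CPM to between 0.741 and 1.65 CPM (1.87, SE 0.57). The GDF15 call (adjusted p = 0.0384) ended without replicate 1 or 3 with both antibodies (0.131 and 0.0644) and without untreated replicate 1, 2 or 3 (0.0542, 0.125 and 0.0822).

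**Figure D3:**
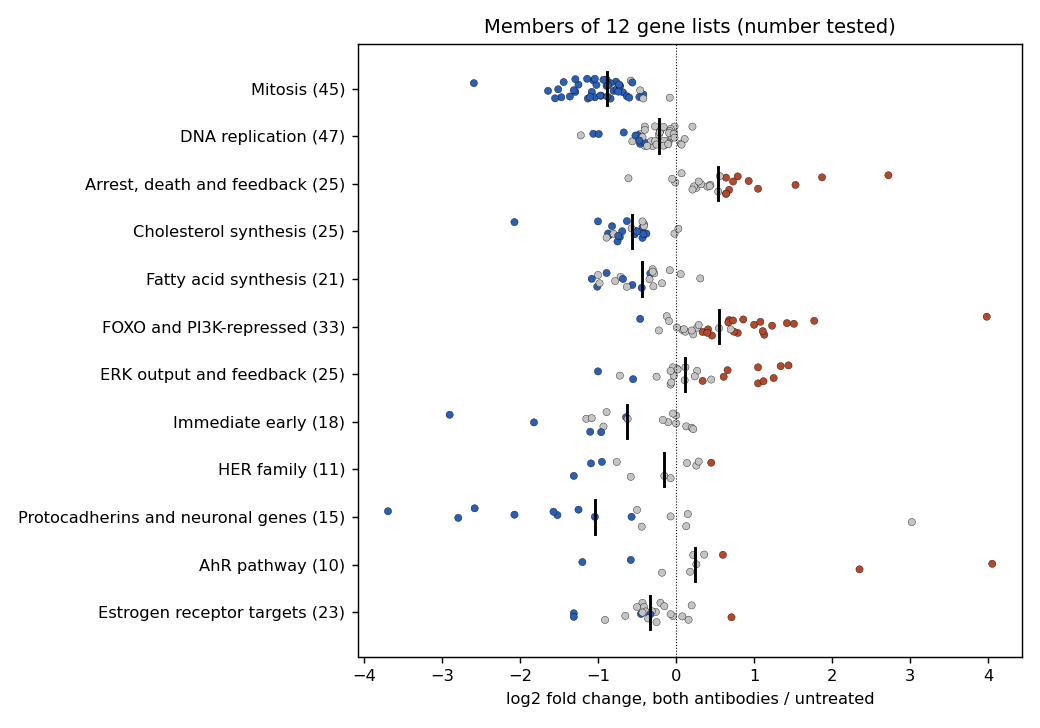
Log2 fold changes of both antibodies over untreated for the tested members of 12 gene lists (number tested in brackets); coloured points passed the test, grey ones did not, and the black bar is the list's median. The mitosis points all lie below 0 (median -0.89) and most FOXO points above it (median 0.55), while the ERK list reaches both sides.

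Many lipid synthesis genes fell. Of 25 tested cholesterol synthesis and uptake genes 17 fell and 0 rose (median -0.57; 0 rises at an unadjusted p under 0.05, in DESeq2 and in limma). The 21 tested genes that make fatty acids gave 7 falls and 0 rises (median -0.44; 1 rise at an unadjusted p under 0.05, 0 in DESeq2 and limma). SQLE, squalene epoxidase, fell from 353, 423 and 394 CPM to 239, 208 and 200 CPM (-0.86, SE 0.12, adjusted p = 0.000134). The groups did not overlap, and the call held under all 17 alternatives. CYP51A1, lanosterol demethylase, had the largest estimate of the list (-2.07, SE 0.50), but its adjusted p of 0.0102 became 0.0676 without replicate 3 with both antibodies. The sterol response core TCACCCCAC was in 1 of 18 promoters of the list (5.56%; 0.348% of all), that of SREBF2, the master regulator of the pathway, which itself fell (-0.82, SE 0.23, adjusted p = 0.0228) with a call lost without replicate 2 or 3 with both antibodies (0.0832 and 0.131) or untreated replicate 1 (0.119).

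Among the fatty acid genes FADS1, a desaturase, fell from 386, 416 and 370 CPM to 217, 173 and 163 CPM (-1.08, SE 0.13), and ELOVL6, an elongase, from 82.6, 108 and 87.3 CPM to 51.2, 43.2 and 43.3 CPM (-1.01, SE 0.13). SCD, stearoyl-CoA desaturase, fell from between 2538 and 2673 CPM to between 1420 and 1971 CPM (-0.68, SE 0.14). In a separate list of lipid breakdown and storage genes 4 of 18 rose, beside 6.39% over all genes tested. Among them PPARGC1A, a coactivator of oxidative metabolism, rose from between 6.94 and 7.31 CPM to between 9.67 and 13.9 CPM (0.77, SE 0.17). The list counts moved with single libraries: without untreated replicate 1, or without replicate 2 or 3 with both antibodies, 10, 9 and 5 cholesterol genes and 4, 3 and 4 fatty acid genes fell. Against trastuzumab alone edgeR's test called 0 genes of both lists (2 of each higher at an unadjusted p under 0.05; DESeq2 called 0 and 1, limma 0).

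The largest rise among the genes tested was that of CYP1A1 (ENSG00000140465.13, chromosome 15, 74719542 to 74725610), a cytochrome P450 that the aryl hydrocarbon receptor (AhR) induces. It stood at 5.77, 5.48 and 4.72 CPM untreated, 48.1, 38.9 and 45.1 CPM with trastuzumab and 97.7, 73.9 and 93.2 CPM with both antibodies, so the 3 groups did not overlap. The rise with both antibodies was 16.6-fold (4.05, SE 0.19, adjusted p = 1.04e-10), and the level was 1.00 log2 units (SE 0.16, adjusted p = 0.00222) above trastuzumab alone, a call that held under all 17 alternatives. Its neighbour CYP1A2 rose from 0.44, 0.414 and 0.181 CPM to 1.81, 1.93 and 1.51 CPM (2.35, SE 0.39). The rest of the AhR list did not move together: of 10 tested members 3 rose and 2 fell. TIPARP, another target of the receptor, rose by 0.60 (SE 0.18), and AHRR, its repressor and target, fell by 0.58 on the log2 scale (SE 0.17), as did the amino acid transporter SLC7A5 by 1.20 (SE 0.32). Without replicate 2 or 3 with both antibodies or untreated replicate 1 none of these 3 passed (adjusted p from 0.0687 to 0.196). The core GCGTG was in 4 of 9 AhR list promoters (44.4%), beside 31.9% of all promoters and 44.9% of those of tested genes.

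Secreted proteins of glandular cells were among the remaining leading rises, beside genes of other roles. Of 21 tested members of a list of apocrine and secretory proteins 3 rose and 1 fell (median 0.22). Over all genes tested 6.39% were higher and 6.02% lower. PIP, prolactin-induced protein, a marker of apocrine glands, rose from 5.6, 2.95 and 4.58 CPM to 28.4, 18.4 and 19.6 CPM (2.34, SE 0.24, 5.05-fold). SCGB2A2, mammaglobin, rose from 10.1, 11.5 and 8.89 CPM to 27.2, 22.9 and 20.2 CPM (1.20, SE 0.14). BPIFB1, a secreted lipid-binding protein, rose from 18.1, 8.84 and 9.30 CPM to 57.9, 36.1 and 37.6 CPM (1.86, SE 0.28). In all 3 genes replicate 1 was the highest of the treated libraries, and no treated library reached down to an untreated one. CYBRD1, a ferric reductase, rose from between 5.00 and 7.19 CPM to between 24.6 and 32.0 CPM (2.30, SE 0.16), and the exchange factor gene FGD5 from between 2.95 and 3.90 CPM to between 14 and 18.3 CPM (2.23, SE 0.20). TNFSF15, a TNF family cytokine, rose 4.16-fold (2.06, SE 0.16), CYP4F8, a fatty acid hydroxylase, 3.91-fold (1.97, SE 0.20), TGFBI, a matrix protein, 3.71-fold (1.89, SE 0.18) and SIGLEC15, a sialic acid receptor, 3.67-fold (1.88, SE 0.20). B4GALNT3 (1.86), CRYM (1.78) and RAI2 (1.73) were also among the 15 largest rises.

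Several of these genes stood higher with the pair than with the single antibody. Against trastuzumab alone PIP was higher by 1.51 (SE 0.23), FGD5 by 1.49 (SE 0.19), TGFBI by 1.46 (SE 0.17), CYBRD1 by 1.30 (SE 0.16), CYP4F8 by 1.23 (SE 0.19) and C10orf10 by 1.18 (SE 0.15), with adjusted p between 0.000112 and 0.00176 and calls kept under all 17 alternatives. For CRYM (0.11, SE 0.12), RAI2 (0.20, SE 0.17) and B4GALNT3 (0.18, SE 0.19) the difference did not pass. In absolute CPM, abundant genes that rose included BCAS1 (204, 226 and 228 CPM to 513, 613 and 650 CPM; 1.43, SE 0.12), PRSS23, a serine protease (191 to 242 CPM against 453 to 584 CPM; 1.20, SE 0.13), SAT1, which degrades polyamines (156 to 184 CPM against 385 to 457 CPM; 1.30, SE 0.09), and DHRS2 (354 to 470 CPM against 655 to 718 CPM; 0.77, SE 0.11).

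**Figure D4:**
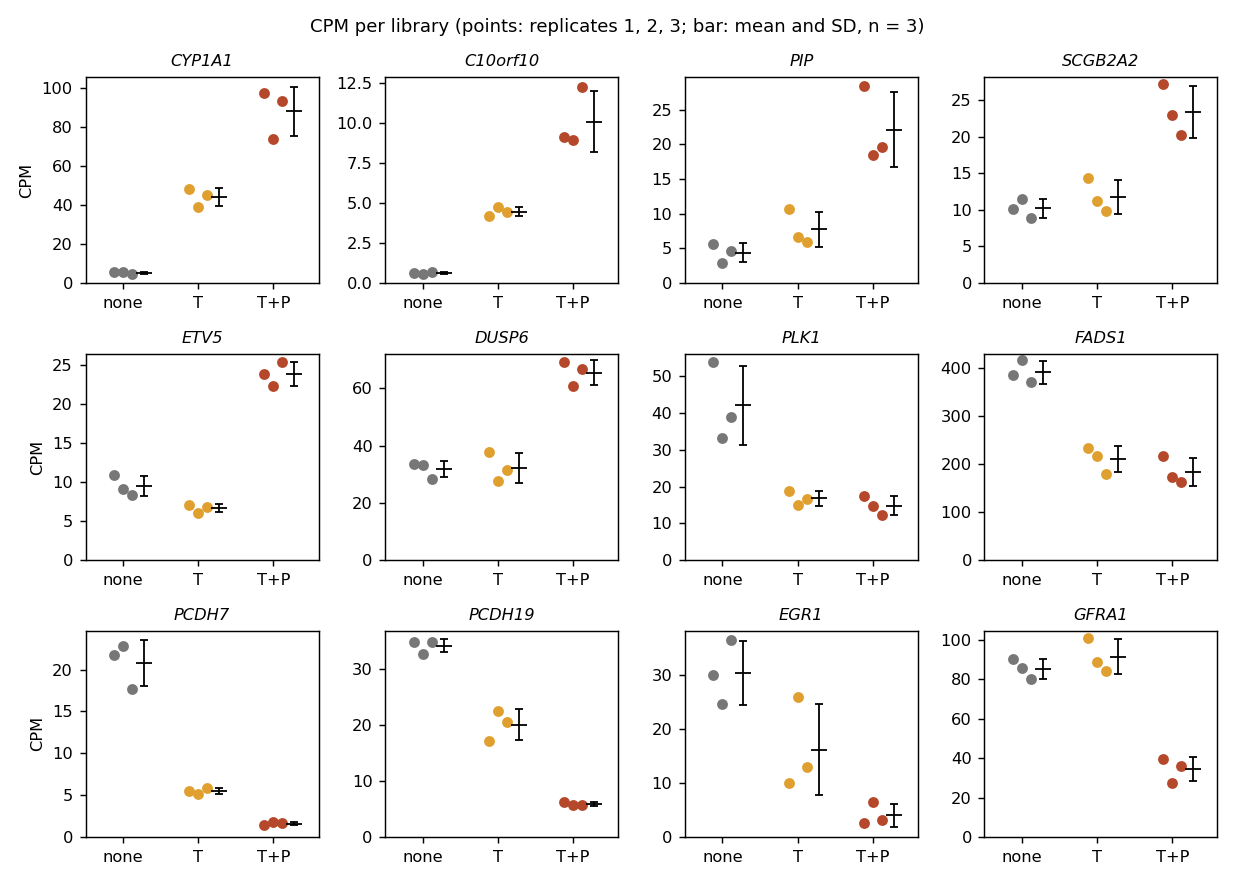
CPM in each library for 12 genes without antibody (none), with trastuzumab (T) and with trastuzumab plus pertuzumab (T+P); points are replicates 1, 2 and 3 and the bar beside them is the mean with its SD (n = 3). CYP1A1 and PCDH7 step from none to T to T+P, DUSP6 and GFRA1 overlap between none and T and stand apart in T+P, and PLK1 and FADS1 overlap between T and T+P.

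Adhesion and synaptic genes were among the steepest falls. Of 15 tested members of a list of protocadherins and neuronal genes 9 fell and 0 rose, with a median of -1.04, and 8 to 10 fell under each of the 17 alternatives. The list was chosen with earlier results of these data known, so these counts describe its members and test no common theme. No member rose at an unadjusted p under 0.05, in DESeq2 or in limma, and 1 did with the GC correction. PCDH7 (ENSG00000169851, chromosome 4, 30720415 to 31146805), a protocadherin, fell from 21.8, 22.8 and 17.7 CPM to 1.37, 1.73 and 1.70 CPM, 12.9-fold (-3.69, SE 0.23, adjusted p = 7.79e-09). PCDH19, a protocadherin outside the list, fell from 34.8, 32.8 and 34.8 CPM to 6.27, 5.78 and 5.70 CPM (-2.53, SE 0.17). SYT1, the calcium sensor of synaptic vesicles, fell from 22.3, 29.3 and 24.0 CPM to 4.01, 3.36 and 3.50 CPM (-2.79, SE 0.15). The replicates of these genes were close together, and trastuzumab alone gave values between both groups, at 5.18 to 5.79, 17.1 to 22.6 and 8.36 to 9.42 CPM. PCDH10 (-2.58, SE 0.28), PCDH9 (-2.07, SE 0.30), the adhesion molecule NCAM2 (-1.57, SE 0.13), the GABA receptor subunit GABRE (-1.52, SE 0.23), the protease inhibitor SERPINI1 (-1.25, SE 0.19) and the contactin CNTN1 (-1.04, SE 0.16) fell as well. NRXN3, a neurexin, fell by 0.57 on the log2 scale (SE 0.15), a call that ended without replicate 2 or 3 with both antibodies (0.0857 and 0.0768) or untreated replicate 1 or 2 (0.0516 and 0.0762). CBLN2, a synapse organizer outside the list, fell from 25.7, 27.3 and 27.9 CPM to 5.99, 6.87 and 5.70 CPM (-2.12, SE 0.14).

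The other leading falls belonged to genes of varied roles. SOX2, a stem cell transcription factor, fell from 9.18, 19.8 and 13.8 CPM to 2.03, 3.31 and 2.97 CPM (-2.35, SE 0.28). ROBO1, the Slit receptor, fell from 51.4, 58.9 and 47.2 CPM to 16.4, 13.4 and 14.5 CPM (-1.83, SE 0.14), and the chemokine CXCL14 from 32.6, 32.5 and 26.0 CPM to 8.30, 6.23 and 7.11 CPM (-2.07, SE 0.24). None of these groups overlapped. The mucin gene MUC19 (-2.30, SE 0.32) and NABP1, which binds single-stranded DNA (-1.67, SE 0.17), fell 4.91-fold and 3.18-fold. CHTF18, which acts with the clamp loader at replication forks (-1.83, SE 0.50), and the pseudogene HMGN2P4 (-1.81, SE 0.46), whose reads may belong to its parent gene, lost their calls without replicate 2 with both antibodies (adjusted p = 0.0687 and 0.0518), replicate 3 (0.116 and 0.0654) or untreated replicate 1 (0.0855 and 0.0805). Outside the 15 largest falls, CDH2, N-cadherin, fell by 1.34 on the log2 scale (SE 0.17), the KIT ligand gene KITLG by 0.96 (SE 0.13) and the zinc transporter SLC39A8 by 1.17 (SE 0.15). Against trastuzumab alone PCDH7 (-1.77, SE 0.23), PCDH19 (-1.76, SE 0.16), MUC19 (-1.98, SE 0.32), SYT1 (-1.31, SE 0.15), CBLN2 (-1.22, SE 0.13) and NCAM2 (-0.74, SE 0.13) were lower with the pair, with calls kept under all 17 alternatives.

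GFRA1, ITGB6 and ABCC4 differed widely between the pair and the single antibody. GFRA1, the GDNF co-receptor and an estrogen-induced gene, stood at 90.5, 85.8 and 80.3 CPM untreated and 101, 89.1 and 84.2 CPM with trastuzumab, which overlap (0.10, SE 0.12, adjusted p = 0.68), and at 39.7, 27.6 and 36.1 CPM with both antibodies. Its fall of 1.31 on the log2 scale (SE 0.12) stood beside a difference from trastuzumab alone of -1.41 (SE 0.12, adjusted p = 5.45e-06). ITGB6, an integrin subunit, fell with trastuzumab to 10.9, 10.9 and 9.80 CPM from between 14.2 and 22.1 CPM untreated, and rose with both antibodies to 35.6, 29.5 and 29.4 CPM (0.75, SE 0.15; difference 1.58, SE 0.16). ABCC4, an exporter of cyclic nucleotides and drugs, followed the same order, with 8.24 to 10.5 CPM, 9.98 to 15.2 CPM and 22.8 to 25.0 CPM in trastuzumab, untreated and both (1.01, SE 0.16; difference 1.32, SE 0.16), although its change with trastuzumab alone (-0.31, SE 0.16, adjusted p = 0.267) did not pass. Of 23 tested estrogen receptor targets 4 fell and 1 rose (median -0.33), beside 6.02% lower and 6.39% higher over all genes tested. With replicates 2 and 3 alone 10 fell. The rise, that of SGK3, passed in none of the fits without 1 library except the one without replicate 1 with both antibodies. Against trastuzumab alone 4 of the 23, GFRA1 among them, were lower with the pair (median difference -0.37). In that test 0 were higher (0 at an unadjusted p under 0.05, in DESeq2 and in limma). ESR1 itself, the estrogen receptor gene, fell from 75.3, 81.1 and 88.1 CPM to 51.3, 58.8 and 60.5 CPM (-0.52, SE 0.10, adjusted p = 0.00206).

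Several lists held no called gene, beside 12.4% called over all genes tested: 24 glycolysis, 27 ribosome biogenesis, 16 aminoacyl-tRNA synthetase and 13 mitochondrially encoded genes. At an unadjusted p under 0.05 edgeR's test gave 12 of these 80, DESeq2 called 3 and limma on the deposited values 0. With replicates 2 and 3 alone, 43 mitosis genes fell, 21 FOXO and 9 ERK genes rose, and 20 cholesterol, 10 fatty acid and 10 adhesion and neuronal genes fell. In the test against a 1.5-fold change, 16 mitosis, 0 replication, 0 cholesterol, 2 fatty acid, 2 immediate early and 7 adhesion and neuronal genes fell, and 7 FOXO, 4 ERK and 4 arrest, death and feedback genes rose. Over the 17 other alternatives the falls ranged from 32 to 44 for mitosis, 1 to 26 for replication, 4 to 22 for cholesterol and 3 to 14 for fatty acid genes, and the rises from 11 to 23 for the FOXO and 6 to 10 for the ERK list. With only the 2 groups compared 4 cholesterol genes and 1 replication gene fell.

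Markers of luminal breast epithelium were abundant in both groups, and their sum was lower with both antibodies. The 8 luminal markers summed to 11200 to 14300 CPM in untreated libraries and 8070 to 9780 with both antibodies, without overlap. ERBB2, whose own change did not pass edgeR's test (-0.58, SE 0.24, adjusted p = 0.122), is 1 of the 8. At the levels given above, which unlike the sum are TMM-scaled, it held a large part of the sum. The sum therefore says little about the other markers. The median log2 fold change of the 8 was -0.33. The keratin KRT8 (-0.78, SE 0.24, adjusted p = 0.0389) and the cadherin CDH1 (-0.40, SE 0.13, adjusted p = 0.0446) were the 2 that fell. Both calls ended without replicate 2 with both antibodies (0.0736 and 0.182), replicate 3 (0.174 and 0.128), untreated replicate 1 (0.166 and 0.0782) or 3 (0.0598 and 0.0839), and singly without replicate 1 with both antibodies (KRT8, 0.06) or untreated replicate 2 (CDH1, 0.126). Fibroblast markers (7 in the table) summed to 25.9 to 41.8 and 17 to 20.8, with DCN, FAP and PDGFRB at 0 in all 6 libraries, basal markers (6) to 11.8 to 14.9 and 10.4 to 11.5 with KRT5 at 0, endothelial markers (6) to 9.63 to 16.7 and 5.62 to 10.3, and blood cell markers (5 of 8 in the table) to 0.542 to 0.615 and 0.488 to 0.787 with PTPRC at 0. CDH5, an endothelial marker, rose from 0.22, 0.0517 and 0.0907 CPM to 0.66, 0.692 and 0.584 CPM (2.38, SE 0.45), while the sum of its list was lower. The part of these levels in the results above was not tested.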

How the data were processed

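RNA was sequenced from 21 libraries, of which 3 with both antibodies, 3 untreated and 3 with trastuzumab alone are compared. The authors deposited raw read counts per gene, and values on a log2-like scale; per the submitters' processing notes, Bowtie2, featureCounts and DESeq2 were used on build hg38, with versions and roles not given in the sources used here. Strandedness was not given either, so reads of a gene and of an antisense partner cannot be told apart.

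The counts were analysed with edgeR 4.0.16 (R 4.3.3). A low-count filter was set with filterByExpr by group (minimum count 10, minimum total 15), scaling was by TMM, and 1 model with the group as its factor took in all 21 libraries (14 residual degrees of freedom). Each comparison used the quasi-likelihood test with Benjamini-Hochberg adjustment over the 17650 tested of 37355 genes, called at an adjusted p under 0.05. CPM are edgeR's CPM values on TMM-scaled library sizes. Counts differed between replicates of the 2 groups by 9.83 to 62.6 times counting error (chi-square per degree of freedom), so the spread between libraries set the precision. The fit was tested on simulated data, which held no GC effect and no correlation between same-numbered libraries.

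Alternatives were no filter, CPM of at least 1 in 3 libraries, RLE, library size alone, DESeq2 1.42.0, limma 3.58.1 on the deposited log2-like values, a fit to the compared groups alone, a block for the replicate number, a test against 1.5-fold, each library left out, replicates 2 and 3 alone, and a GC correction (a 5-df spline over 17554 genes) with and without that block. The 17 alternatives counted for single genes leave out the test against 1.5-fold. A group left with 2 libraries used the pooled spread. Deviations from the group means of same-numbered libraries correlated at r = 0.596, 0.177 and 0.437 between both antibodies and trastuzumab alone. The labels do not say whether the numbers pair the libraries.

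The members and the 52 gene lists were chosen with earlier results of these data known. The rule named called genes with a mean of at least 5 CPM and no overlap (the 15 largest rises and falls, and 10 each by CPM), up to 6 called members of each list with at least 1 CPM, and 9 receptors and growth genes; not all are described, and some are not reported here. Some genes outside it were named after their values were seen, namely ASPM, CDH5, CNTN1, DUSP4, ETV1, FAS, FOXO4, GDF15, IRS1, ITGB6, KLHL24, LRIG1, NRXN3, PDK4, SERPINI1, SPRED1, SPRED2, SPRY2, TRIB2 and YPEL5. Positions are from GENCODE 29 and promoters from RefSeq on GRCh38.p14; a promoter was printed only where at most 30 of its bases lie inside the GENCODE gene.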

Additional observations from a re-analysis of the deposited data

Results flagged for a closer look

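In 116 genes both tests passed, the one against no antibody and the one against the single antibody, and in 40 of these the changes against untreated cells had opposite signs with the pair and with the single antibody. The 2 changes share the untreated libraries, and the test is that of the difference itself. Of the genes described above, the log2 differences of both antibodies from trastuzumab alone were 1.84 for ETV5, 1.55 for ETV4, 1.05 for SPRED1, 0.56 for SPRED2, 1.58 for ITGB6, 1.32 for ABCC4 and -1.41 for GFRA1. Of the changes with trastuzumab alone, those of ETV5 (-0.50, adjusted p = 0.0147) and ITGB6 (-0.83, 0.00237) passed, and those of ETV4 (-0.50, 0.219), SPRED1 (-0.38, 0.0919), SPRED2 (-0.22, 0.146), ABCC4 (-0.31, 0.267) and GFRA1 (0.10, 0.68) did not. The SPRED2 difference did not pass with library size alone (adjusted p = 0.0614), without the filter (0.054) or with only the 2 groups compared (0.116); the others passed under all 17 alternatives. Groups of 3 libraries were too small for a test of single outlying libraries.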

How the results depend on the processing

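The 2190 genes called against untreated cells became 254 at the 1.5-fold threshold, 896 with only the 2 groups compared, 3766 with the GC correction, 4008 with replicates 2 and 3 alone, 5750 with the replicate block and 5801 with the GC correction and replicate block; leaving out 1 library gave 1104 to 2048. Same-numbered libraries of these 2 groups correlated in their deviations at r = 0.54, -0.0131 and 0.387 for replicates 1, 2 and 3. Whether the numbers pair these libraries is not in the labels, so the counts with and without the block are both given. Falls made up 48.5% of the calls and 63.8% without the filter. The 153 genes called against trastuzumab alone became 21 at the 1.5-fold threshold, 55 with only the 2 groups compared, 251 with the GC correction, 388 with the replicate block and 482 with the GC correction and replicate block; leaving out 1 library gave 82 to 117, with 82 without replicate 1 and 87 without replicate 2 with both antibodies, and 96 and 82 without trastuzumab replicates 2 and 3. The other settings stayed within 1.5 times of both counts. The cause of these shifts was not tested, apart from the fewer libraries or the higher threshold of some settings. Apart from JUND, no gene named above changed direction in a called result. With only the 2 groups compared, the call of ESR1 (adjusted p = 0.0576) ended too, as did that of EGFR (0.075) and several of the less firm calls described above. At 3 libraries a group, small changes of weakly expressed genes could not be resolved.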
